A study of Mus musculus with 165 samples.

Results

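The libraries described here are the 3 RNA-Seq libraries of PUER cells sampled 144h after the first addition of 4-hydroxy-tamoxifen (OHT) in IL3, out of 81 IL3-OHT libraries and 78 GCSF-OHT libraries in the series, which also holds 3 libraries of IL3 cells and 3 of GCSF cells at 0h. They were chosen by their label and set against the mean of the time points on either side, IL3-OHT 136h (3 libraries) and IL3-OHT 152h (3 libraries). PUER is a mouse hematopoietic progenitor line of genotype Spi1-/-, whose source the paper gives as fetal liver and elsewhere as bone marrow. The line lacks the transcription factor PU.1 and carries a fusion of PU.1 with the estrogen receptor that OHT activates. All 9 libraries come from this line, kept in medium with IL3 and given 200 nM OHT at 0h. At 40h, 88h and 136h some of the medium was renewed together with OHT, so that 144h lies 8 h after the last renewal. Whether the wells labelled 136h were sampled before or after the renewal is not given in the sources used here. The other groups used below are IL3-OHT cells around the earlier renewals (40h to 56h and 88h to 104h), IL3-OHT cells at 8h, 128h and 160h, IL3 cells at 0h without OHT, and cells of the same line that were moved from IL3 to GCSF before 100 nM OHT was added and were sampled at 136h (3 libraries), 144h (3 libraries) and 152h (2 libraries). The study's methods call the replicates biological and give each time point a culture plate of its own. The p-values thus measure the spread between libraries of 1 line, and a plate and its time point cannot be told apart.

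IL3 is a survival and growth factor for myeloid progenitors. Its receptor signals through JAK2 and STAT5, through RAS and ERK, and through PI3K and AKT. ERK signalling is known to induce immediate-early genes such as Fos and Egr1 within minutes, AKT keeps FOXO factors out of the nucleus, and MYC drives the synthesis of ribosomes. PU.1 is a master regulator of macrophages and neutrophils, and in PUER cells OHT starts differentiation toward one or the other, depending on the cytokine.

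Each of the 9 libraries held between 20052894 and 25841035 reads on genes, against 14600246 to 33147945 over the whole series. The values are normalized counts, which are read counts divided by 1 size factor per library. A count of 3 reads, the limit that a count of 0 allows, corresponded to 2.78 to 3.83 normalized counts, counting error only. Replicates differed by more than sampling noise (a chi-square of 2.58 to 19.4 per gene, where 1 is counting error alone), so no library was taken for a repeat of another. At 144h replicate 3 stood apart, with 19.4 against replicate 1 and 17.6 against replicate 2. Replicates 1 and 2 of 144h gave 2.84. Pairs at 136h gave 3.70 to 12.4 and pairs at 152h 2.58 to 3.55. The summed normalized counts were 23700868 to 24591740 at 144h, 26824381 to 27104998 at 136h and 24463498 to 24720904 at 152h.

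Library names in the labels end in a number, and all time points but 120h share the same prefix before it. The libraries of 120h carry another prefix and were left out of the count of steps, but are part of the time courses below. For the others, library numbers rise with time at 25 of the 26 steps in IL3 and at 25 of the 26 steps in GCSF. In both courses the exception is the step from 136h to 144h. The libraries labelled 136h carry higher numbers than those labelled 144h, and lower ones than those labelled 152h. The labels were kept as deposited. By the root mean square difference of log2 group means, the libraries labelled 136h stood nearer to 128h (0.469) than those labelled 144h did (0.738). Those labelled 144h stood nearer to 152h (0.529) than those labelled 136h did (0.645). Whether labels or only numbers were exchanged was not tested. At 96h, 8 h after the renewal at 88h, 60.3% of the genes higher at 144h were higher as well, beside 9.36% of all genes tested. Of those lower at 144h, 59.4% were lower at 96h, beside 8.17% of all genes tested. The main counts are also given with 128h in place of 136h.

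Spi1, the gene disrupted in this line, was listed at 6888, 6919 and 8167 at 144h, against 5042, 4482 and 4847 at 136h and 4687, 5078 and 4648 at 152h. The 3 libraries at 144h were above the 6 others, and the change was 0.61 ± 0.04 (log2, SE; limma adjusted p = 2.3e-25). It lay close to the threshold of 0.58, and was 0.53 without replicate 3 of 144h and 0.58, no longer past the threshold, with 128h in place of 136h. The table does not separate transcripts of the fusion from those of the disrupted locus.

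At 144h, 1498 genes were higher and 1179 lower than the mean of 136h and 152h, out of 17439 genes tested. The test was limma on values taken as log2 after adding 1, and calls needed a log2 fold change beyond 0.58 in either direction with a Benjamini-Hochberg adjusted p below 0.05. Genes called higher were 8.59% of those tested and genes called lower 6.76%. The median size of the change was 0.96 for genes called higher and 0.80 for genes called lower on the log2 scale. By more than 1 on this scale, 700 genes rose and 329 fell, and by more than 2, 65 rose and 18 fell. For 1004 of the genes called higher (67.02%) and 861 of those called lower (73.03%), all 3 libraries at 144h lay beyond all 6 neighbour libraries, as they did for 2008 (11.5%) and 2151 (12.3%) of all genes tested. With 128h in place of 136h, 1338 genes were higher and 1080 lower, and with 128h and 160h as the neighbours 1754 and 1510. Without replicate 3 of 144h, 1345 genes were higher and 1195 lower.

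The neighbours also differed from each other, and 144h was nearer to 152h than to 136h. Against 136h alone, 2437 genes were higher (14% of those tested) and 2058 lower (11.8%). Against 152h alone, 687 genes were higher (3.94%) and 663 lower (3.8%), or 7.74% in either direction. Between 152h and 136h, 1608 genes were higher at 152h (9.22%) and 1177 lower (6.75%). These comparisons share libraries and are set side by side. The root mean square difference between 144h and 136h was 0.769, more than that of either to 152h. When the libraries labelled 136h were set against the mean of 128h and 144h, 743 genes were higher (4.26%) and 1073 lower (6.15%), or 10.4% in either direction.

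**Figure D1:**
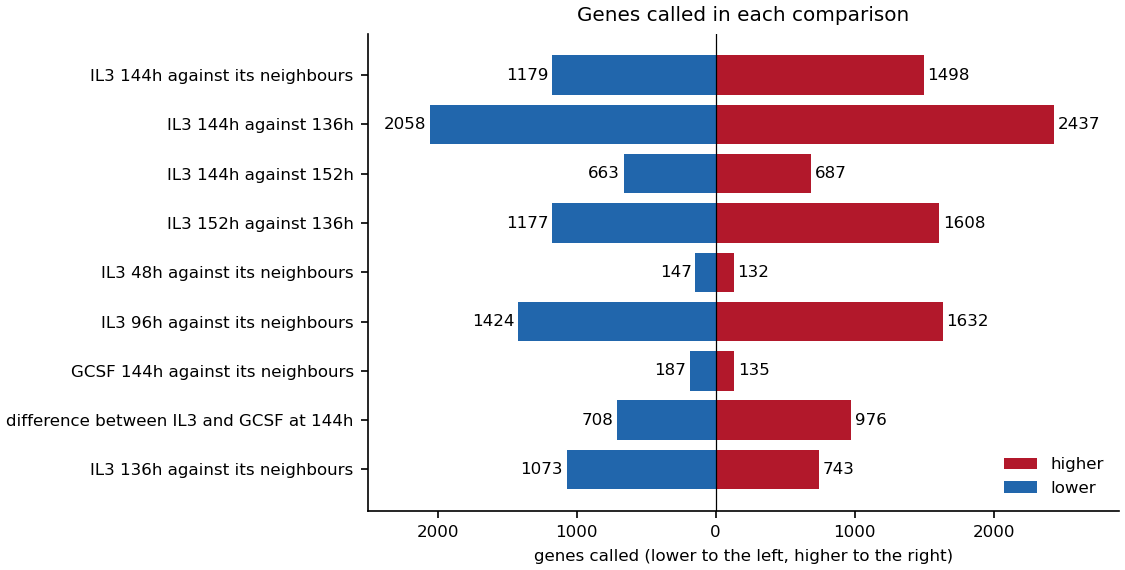
Genes called in each comparison (x axis, number of genes; y axis, comparison), with genes called lower as blue bars to the left and genes called higher as red bars to the right. In IL3, 144h and 96h had 1498 and 1632 genes higher than their neighbours, against 132 at 48h in IL3 and fewer than 200 at 144h in GCSF.

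The 12 largest rises at 144h, among called genes with a mean of at least 50 normalized counts and no overlap with the neighbours, spanned a log2 fold change of 1.81 to 2.81, and the 12 largest falls one of -1.55 to -2.46. Slc18a1, a vesicular monoamine transporter (ENSMUSG00000036330, chr8:69037711-69089235, minus strand in GRCm38), had the largest rise of these. It was listed at 67.4, 76.9 and 91.98 at 144h, against 7.66, 2.49 and 3.51 at 136h and 22.6, 26.6 and 22.5 at 152h. The 3 libraries at 144h stood above all others and those at 136h were near the limit of 3 reads. The change was 2.81 ± 0.32 (limma adjusted p = 1.7e-13). Fosb, a subunit of the AP-1 transcription factor (ENSMUSG00000003545, chr7:19302696-19310051, minus strand), was listed at 4121, 2647 and 3175 at 144h, against 271, 202 and 198.96 at 136h and 1048, 1140.02 and 997 at 152h. It was high in the 3 libraries at 144h, intermediate at 152h and low at 136h, a change of 2.75 ± 0.16 or 6.71-fold (limma adjusted p = 5.7e-32).

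The other large rises, each as log2 fold change with SE, were those of Ppfia4 (2.60 ± 0.44), Dnah10 (2.34 ± 0.40), Slc7a11 (2.17 ± 0.19), Myo15 (2.10 ± 0.47), Arhgap4 (2.01 ± 0.21), Rnf225 (1.92 ± 0.23), Gpatch4 (1.91 ± 0.09), Atp1b2 (1.86 ± 0.21), Sema3c (1.84 ± 0.27) and Apc2 (1.81 ± 0.27). Slc7a11 encodes the cystine and glutamate antiporter, Gpatch4 a G-patch protein, Atp1b2 a subunit of the sodium pump, Sema3c a secreted semaphorin, Dnah10 a dynein heavy chain and Myo15 an unconventional myosin. Gpatch4 was listed at 512, 509.7 and 613 at 144h, against 86.8, 82.2 and 79.6 at 136h and 239, 266 and 239 at 152h, with the 152h libraries between the other groups. Over the 15 time points from 56h to 168h in IL3, 144h had the highest mean for 8 of the 12 genes and the second highest for 3. These genes were chosen for their rise at 144h over 136h and 152h, so a high rank follows in part from the choice.

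Among the falls, Myh7b, a myosin heavy chain (ENSMUSG00000074652, chr2:155611212-155634307, plus strand), was listed at 36.96, 50.05 and 79.7 at 144h, against 375, 282 and 312 at 136h and 295, 254 and 268 at 152h. Both neighbours were alike and 144h alone was low, a change of -2.46 ± 0.32 (limma adjusted p = 3.4e-11). Ypel2 (ENSMUSG00000018427, chr11:86936425-86993707, minus strand) was listed at 135.9, 164.04 and 148.4 at 144h, against 733, 740.1 and 623 at 136h and 338, 336 and 327 at 152h, which again placed 152h between 144h and 136h, a change of -1.69 ± 0.10. The rest were Azin2, a regulator of polyamine synthesis (-2.34 ± 0.18), Fn3k, a kinase that removes sugars from glycated proteins (-2.06 ± 0.26), Layn, a hyaluronan receptor (-1.96 ± 0.15), Fam214a (-1.86 ± 0.12), Porcn, which lipidates Wnt proteins (-1.83 ± 0.31), Ptprf, a receptor tyrosine phosphatase (-1.66 ± 0.28), Zfp773 (-1.64 ± 0.11), Fbxo44 (-1.62 ± 0.16), Adamts6, a secreted protease (-1.61 ± 0.19), and Ankrd61 (-1.55 ± 0.29). From 56h on, 144h had the lowest mean for 5 of the 12 genes and the second lowest for the other 7. A low rank here follows in part from the choice of these genes by their fall at 144h. Exons of Myh7b, Apc2, Ankrd61 and Arhgap4 overlap those of other tested genes, and the strand setting of the counting is not given in the sources used here.

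**Figure D2:**
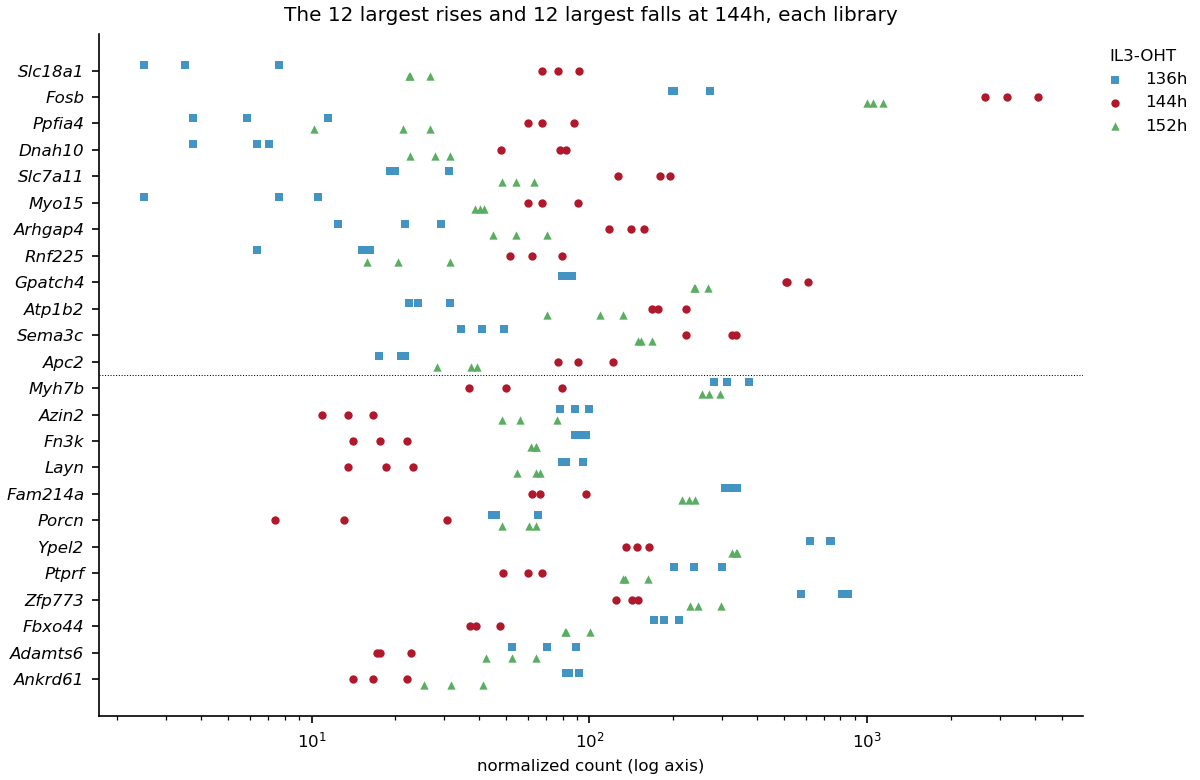
Normalized count (x axis, log scale) of the 12 largest rises (above the dotted line) and the 12 largest falls (below it) in each of the 9 libraries, with 136h as blue squares, 144h as red circles and 152h as green triangles. The 3 circles of each gene lie beyond its 6 other points, which the rule for choosing these genes required, and in many genes the triangles lie between circles and squares.

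Genes of ribosome production rose together, beside 8.59% of all genes tested called higher. Of 40 genes of ribosome biogenesis tested, 31 were higher, none was lower and 9 did not pass, and the median change was 0.86 against 0.00 over all genes tested. The neighbours gave like counts, with 31 higher against 136h alone and 29 against 152h alone. The list holds the machinery that transcribes, cuts and assembles ribosomal RNA, and Myc. Polr1b, the second largest subunit of RNA polymerase I, was listed at 955, 1018 and 1136 at 144h, against 266, 263 and 246 at 136h and 429, 453 and 424 at 152h. The 3 libraries at 144h stood far above the 6 others, a rise of 1.62 ± 0.07 (limma adjusted p = 1.2e-40). Rrp9, which binds the U3 small nucleolar RNA, rose by 1.52 ± 0.09, Ddx21, a nucleolar RNA helicase, by 1.51 ± 0.06 and Rrp12, which takes part in the export of ribosomal subunits, by 1.51 ± 0.07. Exons of Rrp9 overlap those of Parp3 on the opposite strand. Myc, the transcription factor known to drive many of these genes, was listed at 3328, 3501 and 3696 at 144h, against 1691, 1354 and 1549.6 at 136h and 2009.7, 2206 and 2183 at 152h. Its libraries at 144h were above the 6 others and the rise was 0.96 ± 0.06 (limma adjusted p = 3.4e-30). Genes of the ribosome itself did not share this. None of 40 cytosolic ribosomal protein genes was called in either direction, their median was -0.23, and the one with the most reads, Rpsa, was at -0.18 ± 0.05. Ribosomal protein genes took 6.65% to 6.96% of a library at 144h, 7.42% to 7.98% at 136h and 7.13% to 7.41% at 152h.

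The promoter window of a ribosome biogenesis gene is printed because this list moved as a group and MYC with its partner MAX binds the letters CACGTG. The windows are RefSeq promoters in GRCm38.p6, from 250 bases before to 50 bases after the gene start, and 34 of the 40 genes matched one. CACGTG, which reads the same on both strands, occurred in 7 of these 34 (20.6%), of which 6 were called higher, and in 8.09% of all 27025 genes with a window. Of the 34 genes 26 were called higher, so that most were called with or without the letters. Among the carriers, Nop2, an RNA methyltransferase of the nucleolus, had the largest change (1.15). Its window is chr6:125131633-125131932 on the plus strand, with the match in capitals.
Nop2: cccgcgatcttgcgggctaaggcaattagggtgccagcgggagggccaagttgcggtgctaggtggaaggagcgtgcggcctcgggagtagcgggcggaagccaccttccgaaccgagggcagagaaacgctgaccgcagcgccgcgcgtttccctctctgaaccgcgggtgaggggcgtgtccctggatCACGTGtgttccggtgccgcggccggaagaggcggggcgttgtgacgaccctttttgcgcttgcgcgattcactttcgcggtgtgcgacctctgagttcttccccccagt
A match of letters is a description and not a bound site, and the windows shown here and below were chosen after their values were seen.

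Immediate-early genes were partly higher. Of 34 immediate-early genes and genes of ERK feedback, 12 were higher, 1 was lower and 21 did not pass, with a median of 0.39. Over all genes tested, 8.59% were higher and 6.76% lower. Egr1, a zinc finger transcription factor, was listed at 9117, 8885 and 9047 at 144h, against 3224, 2539 and 3243 at 136h and 4209, 4577 and 4024 at 152h. Its libraries at 144h were close to each other and above the 6 neighbours, a rise of 1.34 ± 0.15 (limma adjusted p = 1.7e-13). Fos, the partner of JUN in AP-1, was listed at 6395, 5104 and 5018 at 144h against 1194 to 3068 in the neighbours, a rise of 1.51 ± 0.10. Egr2 was listed at 482, 441 and 493 at 144h against 97.2 to 254, a rise of 1.56 ± 0.19. Egr3 was listed at 7.61, 12.98 and 11.04 at 144h, at 0 in the 3 libraries at 136h and at 2.26, 7.25 and 0 at 152h, and at such levels the fitted change of 2.71 ± 0.49 depends on the pseudocount. Dusp5, Ier2, Phlda1, Nr4a1, Fosl1, Spry1 and Dusp6 rose by 0.63 to 1.03. Dusp4, a phosphatase that acts on ERK, was the gene called lower (-0.91).

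Many immediate-early genes are targets of serum response factor, which binds the CArG box. On both strands this motif occurred in 3 of the 27 genes of the list with a promoter window (11.1%), of which 2 were called higher, and in 1.81% of all genes with a window. Of the 27 genes, 7 were called in either direction. Egr2 had the largest change among the carriers. Its window is chr10:67537316-67537615 on the plus strand, with the CArG box in capitals.
Egr2: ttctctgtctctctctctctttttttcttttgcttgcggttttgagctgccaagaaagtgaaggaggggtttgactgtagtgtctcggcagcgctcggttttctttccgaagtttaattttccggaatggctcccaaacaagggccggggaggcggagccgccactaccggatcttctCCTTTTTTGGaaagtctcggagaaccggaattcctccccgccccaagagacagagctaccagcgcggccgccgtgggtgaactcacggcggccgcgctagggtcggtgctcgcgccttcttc
The other carriers were Dusp5 (1.03) and Zfp36 (0.50), and the latter was not called.

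Genes of the amino acid response were called in both directions. Of 28 genes of the ATF4 and amino acid response, 8 were higher, 3 lower and 17 did not pass, with a median of 0.14. Over all genes tested, 8.59% were higher and 6.76% lower. Slc7a5, the large neutral amino acid transporter, was listed at 2931, 3157 and 4021 at 144h, against 1084, 1004 and 1183 at 136h and 1157, 1306 and 1284 at 152h. The neighbours were alike and the rise was 1.52 ± 0.07 (limma adjusted p = 2.0e-41). Slc7a11 was listed at 194.6, 178.9 and 126.3 at 144h and at 19.1 to 63.3 in the neighbours. Slc1a5, a glutamine transporter, rose by 0.96 ± 0.07 and Phgdh, the entry enzyme of serine synthesis, by 0.89 ± 0.09, and Atf5, Slc1a4, Slc7a1 and Shmt2 rose by 0.72 to 0.85. The list holds 7 genes of amino acid transport, a grouping made after the values were seen, of which Slc7a5, Slc7a11, Slc1a5, Slc1a4 and Slc7a1 were higher and Slc3a2 (0.20) and Slc6a9 (-0.29) were not called. The genes called lower were Gdf15 (-0.86), Nupr1 (-0.77) and Ddit3 (-0.58), which are known as stress-induced genes. Trib3, Chac1 and Asns, often used as readouts of ATF4, were not called (-0.04, 0.35 and 0.11).

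The letters TGATGNAA, a core of the element that C/EBP and ATF factors bind, occurred on either strand in 7 of the 24 genes of this list with a window (29.2%), of which 3 were called, and in 4.51% of all genes with a window. Of the 24 genes, 9 were called in either direction. Slc7a11, the carrier with the largest change, is shown because it has 2 matches in opposite orientation. Its window is chr3:50443564-50443863 on the minus strand, with the matches in capitals.
Slc7a11: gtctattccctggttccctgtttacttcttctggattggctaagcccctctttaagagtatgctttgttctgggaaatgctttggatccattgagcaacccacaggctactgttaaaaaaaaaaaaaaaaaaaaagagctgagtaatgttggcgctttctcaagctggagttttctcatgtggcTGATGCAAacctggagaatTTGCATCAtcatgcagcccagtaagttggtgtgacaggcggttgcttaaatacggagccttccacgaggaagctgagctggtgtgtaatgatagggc
Trib3, Chac1 and Asns carry the letters as well, so that the letters did not separate genes that rose from genes that were not called.

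FOXO targets and members of the TXNIP family were called in the downward direction or not at all. Of 22 genes tested, 9 were lower (6.76% of all genes were), none was higher and 13 did not pass, with a median of -0.45. Against 136h alone 14 were lower, against 152h alone 2 were lower and 1 higher, and 9 were lower at 152h than at 136h. Txnip, an inhibitor of glucose uptake and of thioredoxin, was listed at 29829, 31969.9 and 30558 at 144h, against 102304, 107215 and 95490.2 at 136h and 47910.00, 44419.8 and 45504 at 152h. The groups did not overlap and the change was -1.15 ± 0.05 (limma adjusted p = 1.7e-45). Cdkn1b, which encodes the CDK inhibitor p27, was listed at 2258, 2321 and 2115 at 144h against 3941 to 6197 in the neighbours, a change of -1.12 ± 0.07. Pik3ip1, an inhibitor of PI3K, changed by -0.94 ± 0.07, Ulk1, a kinase that starts autophagy, by -0.91 ± 0.08, and Sesn3, Tsc22d3, Bcl2l11, Arrdc3 and Ccng2 by -0.86 to -0.61.

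Among the 18 G1 cyclins and CDK inhibitors, 8 were lower (6.76% of all genes tested were) and none was higher. They were the CDK inhibitors Cdkn2b (-1.25 ± 0.36), Cdkn1b, Cdkn2c (-1.12 ± 0.09) and Cdkn2d (-0.84), the pocket proteins Rbl2 (-0.95 ± 0.04) and Rb1 (-0.61), and Cdk6 (-0.85) and Ccnd3 (-0.62), which promote the cycle. Genes of DNA replication and of mitosis were called in opposite directions. Of 40 replication genes, 10 were higher (8.59% of all genes tested were) and none was lower, with a median of 0.21. Against 136h alone 13 were higher and 1 lower (median 0.38), and against 152h alone 2 were higher (median 0.04). Tyms, thymidylate synthase, rose by 1.06 ± 0.09, Mcm5, a subunit of the replicative helicase, by 1.03 ± 0.07 and Pola1, the catalytic subunit of DNA polymerase alpha, by 0.96 ± 0.09.

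Of 40 mitosis genes, 12 were lower (6.76% of all genes tested were) and none was higher, with a median of -0.45. Against 136h alone 19 were lower, and against 152h alone 8. Cdc25c, a phosphatase that starts mitosis, was listed at 20.7, 10.2 and 18.4 at 144h against 26.95 to 71.5 in the neighbours, a change of -1.50 ± 0.17. Cenpf, a kinetochore protein, was listed at 258, 181.7 and 229 at 144h, against 444, 469.7 and 369 at 136h and 448, 422 and 423 at 152h, so that both neighbours were alike, and the change was -0.95 ± 0.08 (limma adjusted p = 1.0e-20). Hmmr, a protein of the spindle, changed by -0.93 ± 0.08 and Kif23, a kinesin of cell division, by -0.84 ± 0.07. Over the 27 time points of the IL3 course, the means of Cdc25c, Cenpf, Hmmr, Kif23 and Cdkn2c were lowest at 144h. They were named for the size of their change at 144h, so this rank follows in part from the choice. With 128h in place of 136h, 20 of the 40 mitosis genes were lower, and with 128h and 160h as neighbours 27. In bulk RNA, fewer cells of a type or phase and less RNA per cell cannot be told apart.

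**Figure D3:**
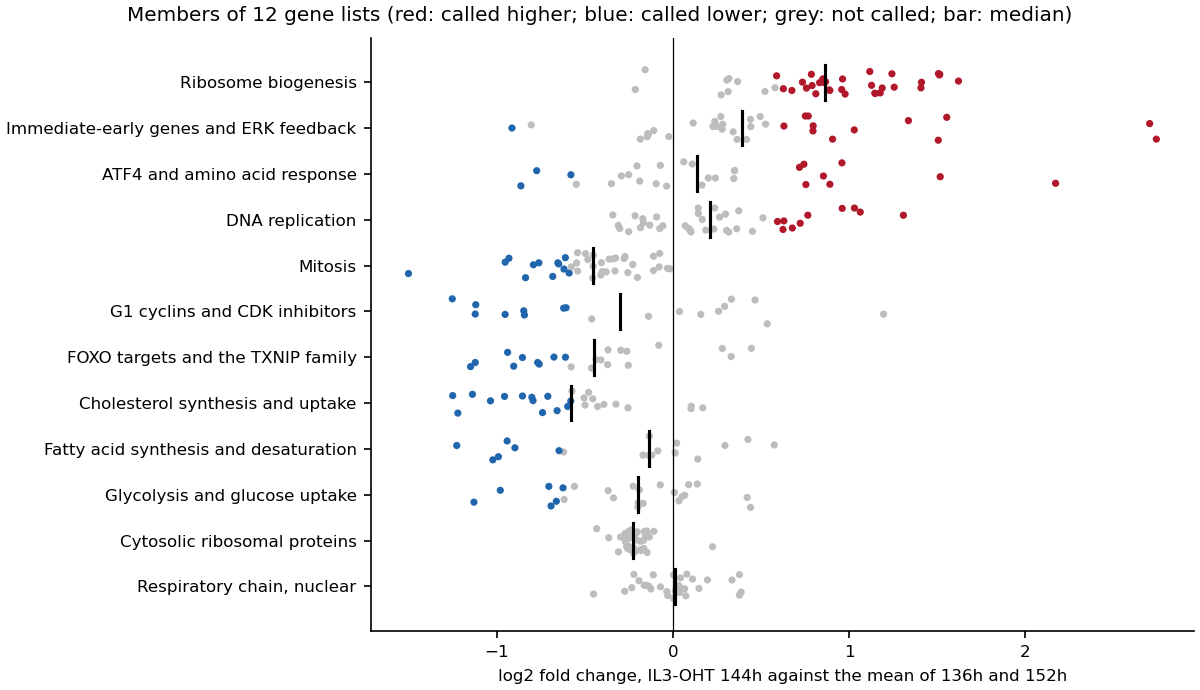
Log2 fold change at 144h against the mean of 136h and 152h (x axis) of the genes of 12 lists (y axis), with each gene as a point, red where called higher, blue where called lower and grey otherwise, and the median as a bar. Most points of ribosome biogenesis lie right of 0 (31 of 40 called higher) and most of cholesterol synthesis left of it (13 of 25 called lower), while cytosolic ribosomal proteins and the respiratory chain hold no called gene.

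Genes of sterol synthesis were lower or not called, beside 8.59% of all genes tested called higher and 6.76% lower. Of 25 genes of cholesterol synthesis and uptake, 13 were lower and none was higher, with a median of -0.58. Insig1, which retains the SREBP activator SCAP in the endoplasmic reticulum and is itself a SREBP target, was listed at 973, 938 and 1241 at 144h, against 5198, 4384 and 4092 at 136h and 1471, 1349 and 1267 at 152h. The highest library at 144h lay just below the lowest at 152h, and the change was -1.25 ± 0.07 (limma adjusted p = 2.2e-35). The enzymes Msmo1, Fdft1 and Fdps changed by -1.22 ± 0.08, -1.14 ± 0.10 and -1.04 ± 0.09, and Srebf2, which encodes SREBP2, by -0.96. Against 136h alone 19 of the 25 genes were lower, and against 152h alone 3. Exons of Fdft1 and Fdps overlap those of other tested genes. Of 18 genes of fatty acid synthesis and desaturation, 6 were lower and none was higher, led by the desaturase Fads1 (-1.23 ± 0.06) and the phosphatidate phosphatase Lpin1 (-1.02 ± 0.08). Of 17 genes of lipid export and PPAR response 3 were higher, namely Angptl4, a lipase inhibitor (1.13 ± 0.11), Cd36, a fatty acid transporter (0.83 ± 0.23), and Apoe, a lipid carrier (0.62 ± 0.10).

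A sterol-regulated promoter is printed because SREBP factors bind the letters TCACNCCAC. On both strands these occurred in 1 of the 17 genes of the cholesterol list with a window (5.88%) and in 1.44% of all genes with a window. The carrier was Hmgcs1, which makes the precursor of mevalonate and was lower (-0.71). Its window is chr13:119690101-119690400 on the plus strand, with the match in capitals.
Hmgcs1: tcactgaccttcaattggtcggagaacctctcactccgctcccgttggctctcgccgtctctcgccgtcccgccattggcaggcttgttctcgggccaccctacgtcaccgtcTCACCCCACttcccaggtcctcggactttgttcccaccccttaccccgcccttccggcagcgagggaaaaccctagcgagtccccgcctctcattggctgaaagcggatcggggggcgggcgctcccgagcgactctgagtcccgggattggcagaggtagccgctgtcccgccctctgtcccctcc
The other 16 windows did not hold these letters, which says nothing on whether the factor binds there.

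Genes of glucose metabolism and hypoxia were likewise lower or not called, beside 6.76% of all genes tested called lower. Of 24 genes of glycolysis and glucose uptake, 6 were lower and none was higher (median -0.20), among them Aldoc (-1.13 ± 0.14), Gpi1 (-0.98 ± 0.07), Pfkm (-0.71 ± 0.07) and Gapdh (-0.69 ± 0.08). Gapdh was listed at 180484, 189355 and 234490.4 at 144h, against 405162, 351172 and 419034 at 136h and 268297, 263708 and 271509 at 152h, and its counts may be shared with its many pseudogenes. Of 19 hypoxia genes outside glycolysis, Selenbp1, P4ha1 and Car9 were lower (-0.79, -0.75 and -0.59) and none was higher. None of 31 nuclear genes of the respiratory chain was called. Of 13 genes encoded in mitochondria 5 were higher, led by mt-Nd4l (0.87 ± 0.26), which overlaps mt-Nd4, and mt-Cytb (0.87 ± 0.10). This count ran from 2 to 8 over the 20 alternative analyses. It was 2 without replicate 1 of 144h, 3 without replicate 2 of 144h, replicate 3 of 136h or replicate 2 of 152h, and 8 with 128h and 160h as neighbours. None of the 13 was called against 152h, and 11 were higher at 152h than at 136h. They took 0.901% to 1.07% of a library at 136h, 0.984% to 1.64% at 144h and 1.35% to 1.595% at 152h. The range of 144h overlapped those of both neighbours, but that of 136h only through replicate 3 (0.984%). Replicates 1 and 2 of 144h were at 1.64% and 1.46%.

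Genes of redox balance and iron uptake were mixed, beside 8.59% of all genes tested called higher and 6.76% lower. Of 22 NRF2 targets, iron genes and metallothioneins, 6 were higher and 2 lower. Nqo1, a quinone reductase, rose by 1.24 ± 0.14, Tfrc, the transferrin receptor, by 1.19 ± 0.08 and Prdx1, a peroxiredoxin, by 1.13 ± 0.08, while the metallothionein Mt2 changed by -1.14 ± 0.11. Of 20 heat shock genes 4 were higher and 1 was lower, with Hspd1, the mitochondrial chaperonin, at 1.00 ± 0.06 and Hspa4l at -0.93 ± 0.07. Of 18 SRF and cytoskeletal genes 4 were higher, namely Actb, Actg1, Flna and Pfn1 (0.60 to 0.83), and none of the list was called against 152h. Of 18 clock genes 2 were higher and 4 lower, with the output genes Per3 (-1.14 ± 0.06) and Dbp (-1.10 ± 0.11) among the lower ones. Of 14 p53 targets 3 were lower, among them Trp53inp1 (-1.06 ± 0.09) and Bbc3, which encodes PUMA (-0.97 ± 0.13). Against 136h alone 6 were lower, against 152h alone none was lower and 1 was higher, and 7 were lower at 152h than at 136h. Over the IL3 course, the means of Trp53inp1 and Bbc3 were highest at 136h.

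Of 20 genes of the IL3 receptor and STAT5 targets, 4 were higher and 1 was lower. Among all genes tested, 8.59% were called higher and 6.76% lower. Csf2rb2, the beta chain particular to the mouse IL3 receptor, was listed at 15248, 15487 and 19084 at 144h and at 5816 to 9553 in the neighbours, a rise of 1.10 ± 0.05 (limma adjusted p = 8.0e-43). It is close in sequence to Csf2rb, the shared beta chain, which did not pass the fold threshold (0.51 ± 0.04), and the split of reads between them is uncertain. The feedback inhibitors Socs1 and Socs3 rose by 1.09 ± 0.15 and 0.79 ± 0.07, Id1 rose by 0.65 ± 0.05, and the repressor Bcl6 was lower (-0.64). Cish, a STAT5 target, and the kinase Pim1 were not called (0.17 ± 0.07 and -0.07 ± 0.07). Of 26 NF-kB factors and inflammatory cytokines 6 were higher and none was lower, among them the chemokine Cxcl2 (1.26 ± 0.15), Ptgs2, which encodes COX-2 (1.02 ± 0.16), and Tnf (0.98). Icam1, also called, was at or under 3.39 normalized counts in the neighbours and lost its call in 10 of 18 alternative analyses. Of 33 interferon-stimulated genes 3 were higher and 3 lower, shares near those of all genes tested.

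Genes of cell identity were called to differing extents, beside 8.59% of all genes tested called higher and 6.76% lower. Of 28 PU.1 targets 4 were higher and none was lower, namely Spi1, the LPS co-receptor Cd14 (1.15 ± 0.05), Tlr2 (1.07 ± 0.12) and the kinase Fgr (1.06 ± 0.27). Against 136h alone 9 PU.1 targets were higher, and against 152h alone 2. Of 22 monocyte and macrophage markers tested 4 were higher (6 against 136h alone and 2 against 152h alone), led by the chemokine receptor Cx3cr1, which was listed at 2777, 2513 and 2953 at 144h, against 539, 512 and 513 at 136h and 2078, 2356 and 2320.1 at 152h, a rise of 1.34 ± 0.06. The 144h libraries of Cx3cr1 lay above those of 152h by less than their distance from 136h. The summed level of the whole list was 117486 to 124124 at 144h, 119358 to 122354 at 136h and 124385 to 127830 at 152h, and 7 of its 28 genes (among them Marco, C1qa, C1qb, C1qc, Ms4a7 and Klf4) were at 3 reads or fewer in all 3 groups. Itgam, the CD11b chain, and Kit, the stem cell factor receptor, were not called (-0.14 ± 0.05 and 0.21 ± 0.05).

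Of 22 neutrophil genes 2 were lower, the repressor Gfi1 (-0.61 ± 0.05) and the granule protease Prtn3 (-0.59 ± 0.06). Among all genes tested, 8.59% were called higher and 6.76% lower. Gfi1 and Prtn3 lay close to the threshold of 0.58 and lost their call in 3 and 5 of 20 alternative analyses. The count of lower neutrophil genes ran from 0 to 2 over these. The neighbours differed here in direction, with 5 lower and 1 higher against 136h alone and 4 higher and none lower against 152h alone. The summed level of this list was 437356 to 450547 at 144h, 525348 to 564477 at 136h and 450339 to 485027 at 152h. Of 14 progenitor genes tested 1 was higher and 1 lower, with sums of 16196 to 16562 at 144h, 16425 to 17172 at 136h and 16294 to 16949 at 152h. The markers of other cells were at low levels throughout. The sums of the 16 mast cell, basophil and eosinophil markers were 98.9 to 147.2 at 144h, 52.7 to 94.7 at 136h and 84.2 to 99.5 at 152h, with Fcer1a, Prss34, Mcpt1, Tpsb2 and Mcpt4 at 0 in all 9 libraries. Of the 8 that passed the filter on low values, 4 were higher and 1 was lower. They were Il1rl1, the IL33 receptor (1.99 ± 0.48), Ccr3, the eotaxin receptor (1.68 ± 0.49), Ms4a2, a chain of the IgE receptor (1.08 ± 0.34), and Hdc, which makes histamine (0.64), and the lower gene was Prg2, an eosinophil granule protein (-1.52 ± 0.63). The count of higher genes ran from 1 to 5 over the 20 alternative analyses. Ccr3 and Prg2 had means of 2.98 and 0.362 normalized counts at 144h. Of 10 erythroid, megakaryocyte and lymphoid markers tested 1 was higher and 1 lower. The sums of the 22 such markers were 400.03 to 597 at 144h, 274 to 299 at 136h and 391 to 471 at 152h, with the globin genes at 0. The part of these markers in the results above was not tested.

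The renewals at 88h and at 40h were compared in the same way, with libraries that the 144h comparison does not use. Like 144h, the libraries of IL3-OHT 96h were left out of the authors' own analysis. At 96h, 8 h after the renewal at 88h, 1632 genes were higher (9.36% of those tested) and 1424 lower (8.17%) than the mean of 88h and 104h. Of the 1498 genes higher at 144h, 904 were also higher at 96h, which is 60.3% of the 144h list and 55.4% of the 96h list. Of the 1179 lower at 144h, 700 were lower at 96h, 59.4% and 49.2% of the lists. In the opposite direction 5 and 1 were called. At 48h, 132 genes were higher (0.757%) and 0.843% of the genes tested were lower, 279 in all (1.6%), and 25 and 68 of the genes called at 144h were called there in the same direction, which is 1.67% and 5.77% of the 144h lists and 18.9% and 46.3% of the 48h lists. The median change of the genes called higher at 144h was 0.79 at 96h and 0.15 at 48h, and that of the genes called lower was -0.70 and -0.18.

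The lists were called at 96h to differing extents. Of the 40 ribosome biogenesis genes 34 were higher at 96h and none at 48h, of the 34 immediate-early genes 9 and none, and of the 25 cholesterol genes 21 were lower at 96h and 5 at 48h. Of the 40 replication genes 22 were higher at 96h, and 10 at 144h. Of the 40 mitosis genes 4 were lower at 96h, and 12 at 144h. Of the 24 glycolysis genes 13 were lower at 96h, and 6 at 144h. Of the 28 genes of the amino acid response 5 were higher and 7 lower at 96h, and 8 and 3 at 144h. Polr1b went from a mean of 399 at 88h to 1361 at 96h, then 416 at 104h, and again from 258 at 136h to 1036 at 144h, then 435 at 152h. Txnip went from 53129 to 26338 and 40984 around 96h and from 101669.7 to 30786 and 45945 around 144h. Both genes thus moved away at 96h and at 144h and came back in part or whole by the next time point.

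The difference between the effects at 144h and at 96h was tested after the data had been seen. It was called for 495 genes (2.84%), 338 in the upward direction (1.94%) and the others in the downward direction (0.9%). Myc rose more at 144h than at 96h (difference 0.65 ± 0.08, limma adjusted p = 6.9e-10), as did Socs1 (0.95), Socs3 (0.68), Ptgs2 (1.09) and Fosb (0.77). Cdc25c and Cdkn2c fell further at 144h (-0.87 and -0.61). The desaturase Fads2 fell less at 144h than at 96h (1.37), as did Fdps (0.81) and the acetyl-CoA synthetase Acss2 (0.98). Of the 19 hypoxia genes 8 had a higher effect at 144h, where 3 were lower than the neighbours, than at 96h, where 13 were lower. Of the 40 replication genes 13 had a lower effect at 144h. The difference from the 48h effect, also added after the data had been seen, was called for 932 genes upward (5.34%) and 740 downward (4.24%), or 9.59% in either direction.

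A comparison of IL3 8h, 8 h after the first OHT, with IL3 0h was added after seeing the data, as another interval of 8 h after OHT was given, and it uses none of the libraries of the 144h comparison. At 8h, 2055 genes were higher (11.8%) and 3114 lower (17.9%) than at 0h, or 29.6% in either direction. Of 40 ribosome biogenesis genes 25 were higher and none was lower, as at 144h, and of 25 cholesterol genes 13 were lower and 2 higher. The immediate-early genes differed from 144h in direction, since 23 of 34 were lower at 8h and none was higher. Fosb had a mean of 10336 at 0h and 123.6 at 8h (log2 fold change -6.38 ± 0.18, limma adjusted p = 6.9e-61), against a rise of 2.75 ± 0.16 at 144h. Of the genes called higher at 144h, 560 were higher at 8h (37.4% of the 144h list and 27.3% of the 8h list) and 262 were lower. Of those called lower at 144h, 641 were lower at 8h (54.4% and 20.6%) and 11 were higher. Of the 12 largest falls at 144h, 8 had the lowest mean of their IL3 course at 8h, and of the 12 largest rises 3 had their highest mean there.

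**Figure D4:**
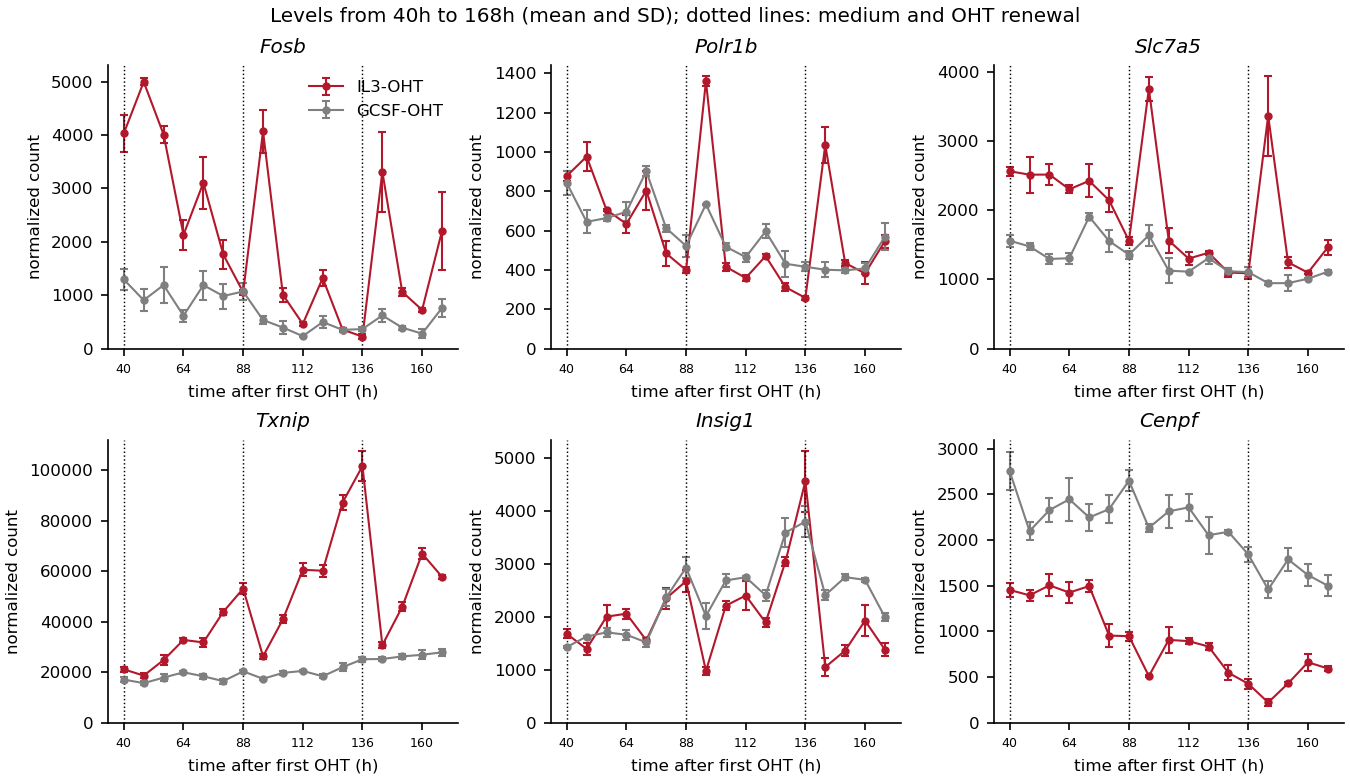
Mean normalized count (y axis) from 40h to 168h after the first OHT (x axis) of 6 genes in IL3-OHT (red) and GCSF-OHT (grey), with SD as bars and the renewals at 40h, 88h and 136h as dotted lines. In IL3, Polr1b and Slc7a5 peak at 96h and 144h and Txnip and Insig1 drop there, while in GCSF Txnip stays at 25173, 25281 and 26299 over 136h, 144h and 152h.

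Medium and OHT were renewed at 136h in the GCSF cells too. These cells were given 100 nM OHT, against 200 nM in IL3, and had spent time in GCSF before OHT. Cytokine, OHT dose and that earlier time in GCSF cannot be told apart in what follows. In GCSF, 322 genes (1.85%) differed at 144h from the mean of 136h and 152h. Of these 41.9% were higher (0.774% of the genes tested) and the others lower (1.07%). Of the genes called in IL3, 64 were also higher (4.27% of the IL3 list and 47.4% of the GCSF list) and 60 also lower (5.09% and 32.1%). The difference between the IL3 and the GCSF effect was called for 976 genes in the upward (5.6%) and 708 in the downward direction (4.06%), or 9.66% in all. The effect on 33 of the 40 ribosome biogenesis genes was higher in IL3, and none of the 40 was called within GCSF. Polr1b had GCSF means of 416, 401 and 398 at 136h, 144h and 152h. Txnip did not pass in GCSF (-0.03 ± 0.05), and the difference between cytokines was -1.12 ± 0.07 (limma adjusted p = 1.4e-29). Insig1 changed by -0.42 ± 0.07 in GCSF and did not pass the fold threshold. Atp1b2 and Sema3c rose in GCSF as well (1.45 ± 0.22 and 1.26 ± 0.28), and their difference between cytokines was not called (0.41 ± 0.30 and 0.57 ± 0.39).

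**Figure D5:**
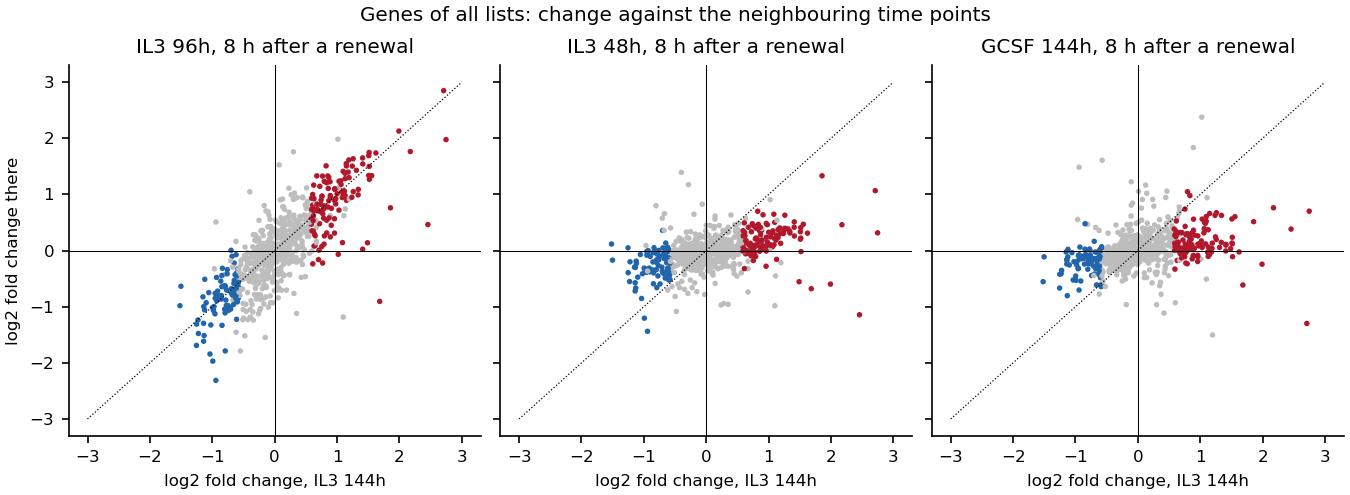
Log2 fold change of the genes of all lists at IL3 144h (x axis) against that at IL3 96h, IL3 48h and GCSF 144h (y axes, 3 panels), each against its neighbouring time points, with genes called higher at IL3 144h in red, genes called lower in blue and others in grey, and the dotted line marking equal change. The points lie along the dotted line at 96h and nearer to 0 at 48h and in GCSF, as do the medians over all called genes (0.79, 0.15 and 0.13 for genes called higher).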

How the data were processed

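RNA was measured by polyA RNA-Seq in 165 libraries of PUER cells, which were grouped by the cytokine, OHT and time in their labels. The authors quantified reads with Salmon (selective alignment, GRCm38) and divided counts by DESeq2 size factors, versions not given in the sources used here. The deposited values are thus a normalized signal (normalized counts) for 36255 genes. Dividing by what 1 read is worth in its library gave whole reads for 100% of nonzero values (relative tolerance 1e-06), and the count tests used these. Reads on genes ran from 14600246 to 33147945 per library, and depth limits genes near 3 reads. The authors left IL3-OHT 96h and 144h out of their own analysis.

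Genes with at least 5 normalized counts in at least 1 library (17439) were tested with limma 3.58.1 in R 4.3.3 on log2(normalized count + 1), which understates the change of low genes. The fit had 1 mean per condition and time point (56 groups, all 165 libraries, mean-variance trend) and Benjamini-Hochberg adjustment per comparison. It was tested on simulated data. Calls needed a log2 fold change beyond 0.58 in either direction with an adjusted p below 0.05. The genes named were the 12 largest rises and 12 largest falls (called, mean of at least 50, no overlap, no predicted genes), up to 4 called members of each list by size, and 9 fixed genes, and list members named beyond these were chosen after their values were seen. The members and lists were chosen with earlier results of these data known. The comparisons of the 144h effect with the 48h and 96h effects and of IL3 8h with 0h were added after seeing the data. Alternatives were other pseudocounts, filters and scaling, other neighbours, a replicate block, each library left out, edgeR 4.0.16 and DESeq2 1.42.0. Replicate numbers did not pair the libraries, and pairing is treated with the alternatives.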

Additional observations from a re-analysis of the deposited data

Results flagged for a closer look

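The effect of 144h against its neighbours differed between IL3 and GCSF by a test of the difference itself (limma interaction) for 976 genes in the upward and 708 in the downward direction. Among the 33 genes named for their size or in any case, 23 had such a difference, given here on the log2 scale as the IL3 effect minus the GCSF effect. Among the genes that rose in IL3 it was 1.91 for Slc18a1, 2.04 for Fosb, 2.16 for Ppfia4, 1.92 for Dnah10, 1.41 for Slc7a11, 2.49 for Myo15, 1.54 for Arhgap4, 1.40 for Rnf225, 1.93 for Gpatch4 and 1.06 for Apc2. Among the regulators named in any case it was 1.19 for Egr1, 0.95 for Egr2 and 1.15 for Myc. Among the genes that fell in IL3 it was -1.46 for Azin2, -1.59 for Fn3k, -1.86 for Layn, -1.62 for Fam214a, -1.86 for Porcn, -1.66 for Ypel2, -1.64 for Zfp773, -1.33 for Fbxo44, -1.45 for Adamts6 and -1.63 for Ankrd61. Each difference has the sign of the IL3 effect. That effect is part of the difference, and most of these genes were chosen for its size. The count of 23 and the shared sign thus follow in part from the choice of genes. GCSF-OHT 152h has 2 libraries, and outside 120h the order of library numbers is broken at the same step in both cytokines. The dose of OHT and the time in GCSF before OHT differ along with the cytokine and cannot be told apart from it.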

How the results depend on the processing

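Over the 20 alternatives, the number of genes higher at 144h ran from 1175 to 1754 and the number lower from 962 to 1510, against 1498 and 1179, all within 1.5 times. With upper-quartile scaling they were 1614 and 1049, with edgeR 1477 and 1109, and with DESeq2 on the 9 libraries 1271 and 962, where 3250 of 17439 adjusted p-values were NA. With 128h in place of 136h, 20 mitosis genes were lower in place of 12, and 27 with 128h and 160h as neighbours. Of the genes tested, 1.9% were higher at 48h with edgeR in place of 0.757%, and 0.499% lower at GCSF 144h in place of 1.07%. Leaving out 1 replicate number at a time gave 0.505% to 0.619% higher and 0.482% to 1.04% lower at GCSF 144h. At 48h it gave 0.183% to 0.522% higher and 0.453% to 0.877% lower. These smaller shares thus varied with the libraries that were kept. The shares higher were below those with all libraries (0.774% and 0.757%) whichever number was left out. Each such fit also had fewer libraries, and GCSF-OHT 152h has only 2 in all. The part of a single replicate therefore cannot be told apart from that of fewer libraries. The causes were not tested. Of the genes named, 29 lost their call at least once and none reversed, foremost Prg2 (11 of 19 alternatives), Icam1 (10 of 18), Car9 (6 of 20), Prtn3 and Zbp1 (5 of 20 each), and none of the 12 largest rises and 12 largest falls did.

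With the replicate number as a block, 1500 genes were higher and 1183 lower. The deviations of same-numbered libraries correlated at -0.13 to 0.29 (9 pairs, 5 over 0.1), and 4 of 9 correlated best with their own number, so the numbers were not taken to pair the libraries.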
